A study of Danio rerio with 4 samples.

Results

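The nuclear genes of the respiratory chain and ATP synthase were taken as every gene whose symbol begins with nduf, uqcr or atp5, with sdh and a letter from a to d, or with cox and a digit from 4 to 8. The rule found 101 of the 25432 genes in the files. Roles were assigned by the start of the symbol, with the ndufa4 family put in complex IV. By this, 36 encode subunits of complex I, 5 of complex II, 8 of complex III, 22 of complex IV and 17 of ATP synthase. The remainder are 7 assembly factors of complex I, 4 of complex II and 2 inhibitory factors of ATP synthase. They were measured by droplet single-cell RNA sequencing of transcript 3′ ends in trunks of zebrafish embryos at 3 days post fertilisation, dissected free of the head and dissociated with trypsin and collagenase. There were 2 libraries of flt1mut embryos and 2 of WT embryos. The flt1mut embryos carried the ka604 allele, which according to the study's methods is a small deletion in an exon of flt1 with a premature stop codon. The flt1 gene encodes a decoy receptor of Vegf. The number of embryos behind each trunk library and whether replicates were separate clutches are not given in the sources used here, so p-values measure only the spread between these libraries, which may be technical.

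The respiratory chain sits in the inner mitochondrial membrane. Complex I takes electrons from NADH, complex II takes them from succinate, complex III passes them to cytochrome c and complex IV gives them to oxygen. Complexes I, III and IV pump protons, and ATP synthase makes ATP from the gradient. Most subunits are encoded in the nucleus and a few catalytic ones in mitochondrial DNA. Proton-pumping tissues and muscle are known for their many mitochondria, and several small subunits of complex IV have tissue-specific forms in mammals.

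After the study's limits on cells, the flt1mut libraries held 4312 and 5569 cells with a median of 5037.5 and 779 unique molecular identifiers (UMIs), and the WT libraries 3042 and 6688 cells with a median of 8033 and 3760 UMIs. The limit of under 5% mitochondrial UMIs removed 43.6 and 36.9% of the flt1mut barcodes and 35.3 and 34.6% of the WT barcodes, more in both flt1mut libraries. The part of this in the genotype comparisons was not tested beyond the values with a 20% limit given below. Pairs of libraries shared 2 to 10 retained barcodes. Clusters, found without these genes and without mitochondrially encoded genes among the variable genes, were named from markers and are written as "-like". There were 21 named classes, 7151 cells stayed unnamed, and 17 classes had at least 20 cells in every library and were tested. The flt1 gene itself was counted in the summed trunk with 55 and 68 UMIs for flt1mut and 34 and 105 for WT. These 3′ tags are no check of the labels, because a transcript with a small deletion still gives a 3′ end.

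The share of a class's UMIs taken by the 101 genes differed 15.9-fold across the 17 classes, from pronephros-like cells at the top to erythroid-like cells at the bottom. In pronephros-like cells, the embryonic kidney tubule, the share was 7.80 and 7.15% in the flt1mut libraries and 7.35 and 6.71% in the WT libraries (mean 7.25 ± 0.455%, SD, n = 4). All 4 libraries lay above every library of every other tested class. Fast muscle-like cells followed with 2.86 and 3.30% in the flt1mut libraries and 2.95 and 2.79% in the WT libraries, and secretory or lateral line-like cells with a mean of 2.93%. The unnamed cells, which are outside this order, had 2.85 and 3.11% in the flt1mut libraries and 2.54 and 3.02% in the WT libraries. They numbered 1359 and 2789 for flt1mut and 504 and 2499 for WT.

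In the middle of the order, melanophore-like cells had a mean of 2.70%, muscle progenitor-like cells 2.51% and neuron-like cells 2.40%. From macrophage-like cells (2.02%) through radial glia-like, xanthophore-like, dividing-like, endothelial-like and smooth muscle-like cells to fin fold mesenchyme-like cells (1.78%) each class overlapped with the next. Chondrocyte or sclerotome-like cells had 1.50%, basal epidermis-like cells 1.08%, superficial epidermis-like cells 1.01% and erythroid-like cells 0.457%. Of the 16 steps between neighbours in this order, 11 overlapped. The 5 that did not were from pronephros-like to fast muscle-like, from neuron-like to macrophage-like, from fin fold mesenchyme-like to chondrocyte or sclerotome-like, from there to basal epidermis-like, and from superficial epidermis-like to erythroid-like cells.

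**Figure D1:**
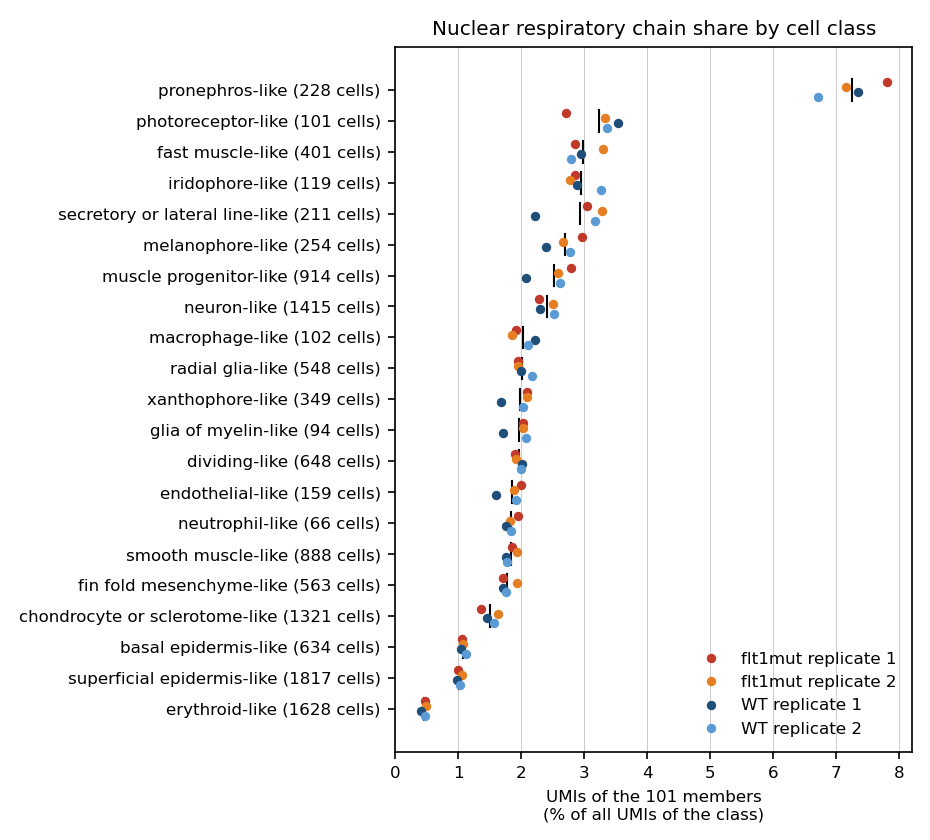
UMIs of the 101 genes as a percentage of all UMIs of a class (x axis), for each named class (y axis, with its number of cells); each point is a library and the black line is the mean of 4 libraries. Pronephros-like cells lie between 6.71 and 7.80%, apart from every other class, and erythroid-like cells between 0.403 and 0.489%.

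Both flt1mut libraries lay above both WT libraries in xanthophore-like, smooth muscle-like and erythroid-like cells, and below both in macrophage-like, radial glia-like and dividing-like cells. In the other 11 tested classes the genotypes overlapped. With 2 libraries per genotype a two-sided exact permutation test cannot go below p = 0.333, so no such order can pass a threshold.

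Pronephros-like cells were shallow, with a median of 1136.5 UMIs per cell, and 8 of the 11 pronephros markers were higher in them, including the cadherin gene cdh17 and the sulfate transporter gene slc26a1 among their leading 10 genes. Their mitochondrially encoded transcripts took 1.50% of UMIs, below the mean of every other tested class except superficial epidermis-like and erythroid-like cells. In the 390 cells of the pronephros-like class that was clustered and named again with a limit of 20%, 26.4% of them over 5%, mitochondrially encoded transcripts took 7.29% and the 101 genes 6.41%. Both the limit and the membership of the class differ there from the 228 cells described here. Fast muscle transcripts, measured by summing the fast muscle marker list, stood at 61565 and 82253 UMIs per 1000000 of the pronephros-like class in the flt1mut libraries and at 35680 and 77176 in the WT libraries. The same list stood at 544803 and 526900 in fast muscle-like cells of the flt1mut libraries and at 508324 and 524125 in those of the WT libraries. The part of fast muscle transcripts in the pronephros-like values was not tested.

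The division of the summed UMIs among the complexes varied less than the sum. ATP synthase subunits took 31.0% of the members' UMIs in erythroid-like cells and 43.0% in pronephros-like cells, the ends of the range over tested classes. Complex I subunits took 27.0% in erythroid-like cells and 19.8% in pronephros-like cells. The ratio of ATP synthase to complex I subunits was 2.18 in pronephros-like cells and 1.15 in erythroid-like cells, against 1.64 in fast muscle-like cells. Complex IV subunits took between 24.97% in pronephros-like and muscle progenitor-like cells and 29.7% in macrophage-like cells. Inhibitory factors of ATP synthase took 4.07% in erythroid-like cells, 3.30% in basal epidermis-like cells and 1.04% in radial glia-like cells.

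The single genes mostly followed the sum. Their levels are given as UPM, the UMIs of a gene per 1000000 UMIs of the class in that library. Of the 94 members that passed the filter on low counts across classes, 91 had their highest UPM in pronephros-like cells and 86 their lowest in erythroid-like cells. The top class depended on the scaling: with counts scaled by the trimmed mean of M values (TMM, described below) 89 of the 94 were highest in fast muscle-like cells, where 0 were highest by UPM. The median correlation over the 17 classes between a member and the sum of the other members was 0.969 (Pearson's r of log2(UPM + 1), 0.957 without pronephros-like cells). The classes share libraries and the sum is dominated by a few classes, so this is a description. The 10 members least like the sum were cox4i2 (r = 0.18), ndufaf2 (0.32), atp5if1b (0.34), cox6a2 (0.49), cox4i1l (0.52), cox7a1 (0.59), cox8b (0.61), cox5b2 (0.68), ndufa4 (0.72) and cox6b1 (0.75). Of these, ndufaf2 is an assembly factor and atp5if1b an inhibitor, and the other 8 are subunits of complex IV. The 3 members whose UPM was not highest in pronephros-like cells were cox4i2, highest in melanophore-like cells, ndufaf2, highest in superficial epidermis-like cells, and ndufa4, highest in neuron-like cells. For ndufa4 the pronephros-like libraries overlapped in UPM with the neuron-like ones. They held 19 and 20 of its UMIs for flt1mut and 5 and 10 for WT.

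**Figure D2:**
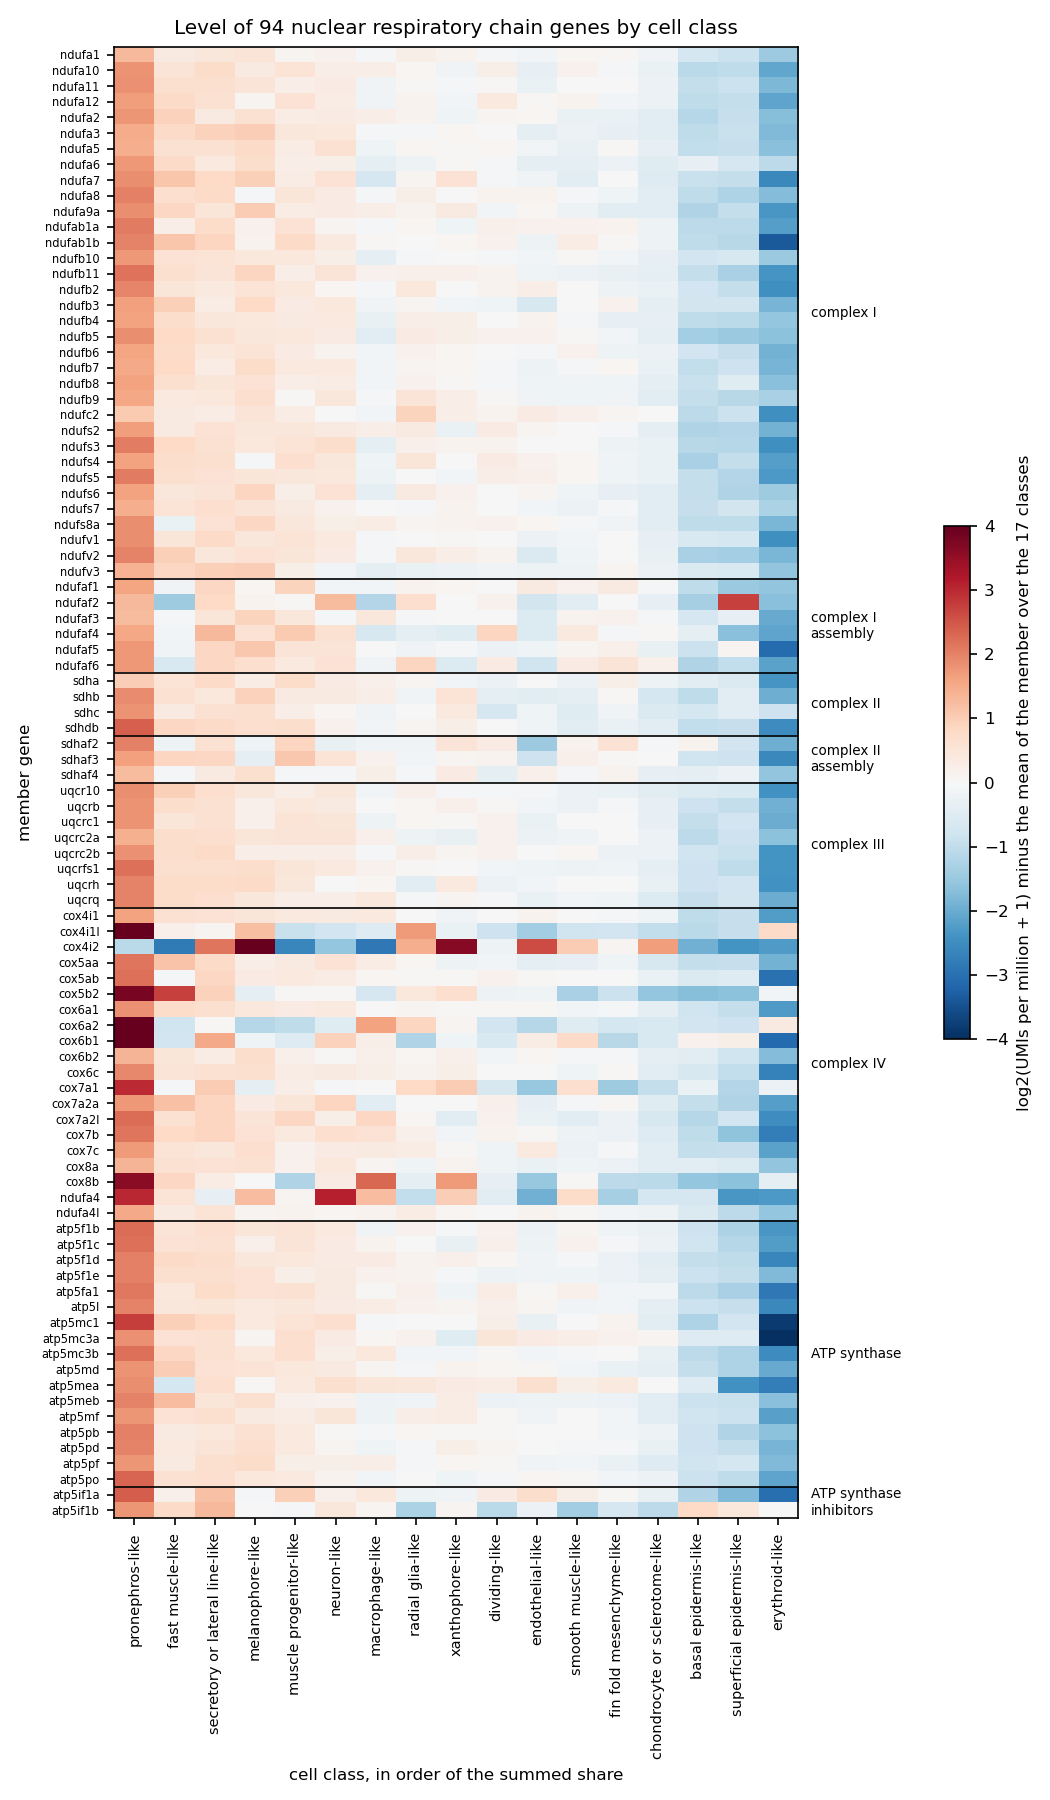
Level of 94 members (rows, grouped by complex) in 17 classes (columns, in order of the summed share), as log2(UPM + 1) minus the mean of that member over the classes. By UPM most rows are highest in pronephros-like and lowest in erythroid-like cells (89 of 94 are highest in fast muscle-like cells with TMM). The genes cox4i2, ndufaf2 and ndufa4 are highest in melanophore-like, superficial epidermis-like and neuron-like cells. For ndufa4 the libraries of neuron-like and pronephros-like cells overlap.

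Each class was then set against the equally weighted mean of the other 16 classes, with libraries as a block (edgeR, called at an adjusted p under 0.05). The clusters are made of cells with similar transcripts, so these contrasts describe the classes and are not independent of the clustering. They also depend on scaling. TMM, which scales to the bulk of genes, gave factors of 0.137 to 0.173 in fast muscle-like cells and 0.153 to 0.165 in erythroid-like cells, against 1.76 to 1.99 in pronephros-like cells. For the 4 classes described first each split is given with TMM and with library totals, which measure a gene against all UMIs of the class.

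In pronephros-like cells 83 of the 94 members were called higher and 0 lower with TMM, and 92 and 0 with library totals. Of all 13797 genes, 9.84% were called higher and 15.4% lower with TMM, and 19.1% and 2.69% with totals. The members' median log2 fold was 1.01 with TMM, where the median of all genes was -0.80, and 1.97 with totals, where it was 0.14. All 17 ATP synthase subunits, all 8 complex III subunits, 32 of 34 complex I subunits and 19 of 20 complex IV subunits were called higher with TMM. Of the pathway's other lists, 13 of 16 genes of the tricarboxylic acid cycle were called higher, 13 of 31 further assembly factors and electron carriers were higher, and 10 of 13 mitochondrially encoded genes were lower. The part of the 5% limit on mitochondrial UMIs in this last count was not tested.

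The largest folds in pronephros-like cells were those of complex IV subunits with low counts elsewhere. The gene cox6a2, whose mammalian counterpart is the form of subunit 6A in heart and skeletal muscle, had 9 and 8 UMIs in the flt1mut libraries and 13 and 19 in the WT libraries, which is 87.4 and 74.2 UPM against 153 and 160. The next tested class, macrophage-like cells, averaged 5.72 UPM, and the log2 fold was 6.71 ± 0.51 (SE, adjusted p = 1.22e-16, edgeR). In fast muscle-like cells cox6a2 had 2 and 6 UMIs in the flt1mut libraries and 0 and 2 in the WT libraries. The groups did not overlap in pronephros-like cells, where cox6a2 was lower in both flt1mut libraries, but the genotype difference was not called.

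The gene cox6b1, for a subunit on the intermembrane face of complex IV, gave the most counts of these. It had 961 and 733 UPM in pronephros-like cells of the flt1mut libraries and 940 and 794 in those of the WT libraries, with 79 to 99 UMIs each. The next class, secretory or lateral line-like cells, averaged 141 UPM, and the log2 fold was 3.45 ± 0.24 (adjusted p = 4.71e-19). The other 2 of the 4 largest were cox4i1l, at 38.8 and 37.1 UPM in the flt1mut libraries and 188 and 118 in the WT libraries, and cox5b2, at 97.1 and 102 against 58.8 and 42.2. Both rest on 4 to 16 UMIs a library.

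Fast muscle-like cells had 92 members called higher and 0 lower with TMM, and 77 higher and 4 lower with library totals, while 29.1% of all genes were called higher and 20.6% lower with TMM, and 6.17% and 52.2% with totals. The members' median log2 fold was 3.46 against -0.32 for all genes with TMM, and 0.65 against -2.74 with totals. Set against the median gene, the members thus stood 3.78 higher with TMM and 3.39 higher with totals. The largest folds were those of cox5b2, atp5meb, cox7a2a and cox5aa. The gene cox5aa, for subunit 5A of complex IV, had 760 and 835 UPM in the flt1mut libraries and 795 and 797 in the WT libraries, and its log2 fold was 4.02 ± 0.06 with TMM and 1.20 with totals. The gene cox5b2, for subunit 5B, had 39.5 and 49.4 UPM against 29.6 and 24.8, with 141 to 454 UMIs a library and a log2 fold of 6.19 ± 0.17 (3.45 with totals). Around them, 13 of 13 mitochondrially encoded genes, 14 of 16 genes of the tricarboxylic acid cycle and 31 of 31 further assembly factors and carriers were called higher with TMM. Of 8 transcriptional regulators of mitochondria 4 were called higher and 3 lower.

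In erythroid-like cells the direction of the call depended on the scaling. With TMM 62 members were called higher and 10 lower, and with library totals 2 were higher and 87 lower. The background moved in the same way, with 29.8% of all genes higher and 18.9% lower with TMM, and 3.73% higher and 54.5% lower with totals. Relative to the median gene the members stood 0.57 higher with TMM and 0.22 higher with totals. Complex I subunits were the group most often called higher with TMM, at 27 of 34. Some members were low on either scale. The gene atp5mc3a, for a copy of the membrane-ring subunit c of ATP synthase, had 17.5 and 17.9 UPM in the flt1mut libraries and 13.3 and 27.7 in the WT libraries, and its log2 fold was -1.74 ± 0.12 with TMM and -4.55 with totals. Its fellow copy atp5mc1 had a log2 fold of -1.32 with TMM, and the assembly factors ndufaf5 and ndufaf6, on 9 UMIs a library or fewer, had folds of -1.62 and -1.78.

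At the other end in erythroid-like cells was cox4i1l, with 30 and 25 UMIs in the flt1mut libraries and 21 and 19 in the WT libraries. Its log2 fold was 4.67 ± 0.43 with TMM and 2.02 with totals. Its mean of 3.42 UPM there was below the means in pronephros-like (95.6), radial glia-like (7.50) and melanophore-like cells (4.99). The gene atp5if1b, for an inhibitor that stops ATP synthase from splitting ATP, had 174 and 167 UPM against 159 and 167. Its log2 fold was 2.85 with TMM and 0.03 with totals. The genes cox7a1 and cox8b were called higher with TMM, at 2.58 and 2.52, and stood at -0.18 and -0.24 with totals.

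In superficial epidermis-like cells 12 members were called higher and 37 lower with TMM, and 2 and 86 with totals. The background was 34.3% higher and 16.8% lower with TMM, and 18.1% and 35.5% with totals. The exception was ndufaf2, an assembly factor of complex I, with 70.6 and 87.7 UPM in the flt1mut libraries and 164 and 149 in the WT libraries. The next class, pronephros-like cells, averaged 43.4 UPM. Its log2 fold was 3.77 ± 0.14 with TMM and 2.99 with totals (adjusted p = 1.29e-34 with TMM), on 796 to 1701 UMIs a library. The gene atp5if1b was also higher on both scales (1.27 and 0.46), ndufaf5 was higher with TMM (1.04, and 0.23 with totals), and ndufa4, atp5mea, cox5b2 and ndufaf4 were lower on both, at -2.005, -1.88, -1.63 and -1.36 with TMM. The gene atp5mc3a changed direction, at 0.28 with TMM and -0.54 with totals.

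In the other 13 tested classes the members' medians lay between -0.81 and 0.06 with TMM and moved with the scaling, against -0.20 in superficial epidermis-like cells with TMM and -1.02 with totals. Neuron-like cells had 3 members called higher and 39 lower with TMM, where 38.4 and 18.2% of all genes were, and a median log2 fold of -0.22 with TMM and 0.36 with totals. Secretory or lateral line-like cells had 9 higher and 4 lower, where 19.7 and 5.99% of all genes were, and medians of 0.01 and 0.67. There cox7b and cox7a2a were called higher on both scales, while ndufc2, ndufb7, ndufb3 and cox6b2 lay near -0.34 with TMM and near 0.32 with totals and were called in opposite directions. Muscle progenitor-like cells had 12 higher and 12 lower, where 29.1 and 15.2% of all genes were. Their ndufab1b (0.37) and atp5mc3b (0.25) were higher, and their cox8b (-1.75), cox6b1 (-1.06), sdhaf4 and atp5if1b lower, and the last pair was not called with totals. In melanophore-like cells 10 were higher and 4 lower, where 11.7 and 9.03% of all genes were, and in xanthophore-like cells 2 and 21, where 8.55 and 7.11% were.

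Radial glia-like cells had 3 members higher and 80 lower with TMM, where 35.7 and 14.3% of all genes were, and dividing-like cells 1 and 84, where 37.2 and 15.9% were. Their medians were -0.56 and -0.54 with TMM and 0.09 and 0.05 with totals. The gene atp5if1b was the lowest named member in both, at -1.99 and -1.75 with TMM and -1.34 and -1.15 with totals. After it came cox6b1, ndufa4 and ndufaf4 in radial glia-like cells and cox7a1, sdhc and cox6b1 in dividing-like cells. In dividing-like cells cox7a1 had only 2 and 1 UMIs in the flt1mut libraries and 0 and 12 in the WT libraries.

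Basal epidermis-like cells had 2 members higher and 75 lower with TMM, where 29.8 and 11.7% of all genes were, and a median of -0.62 with TMM and -0.998 with totals. The named ones were cox5b2 (-1.79), cox8b (-1.55), ndufaf6 and ndufb5, called lower on both scales. Chondrocyte or sclerotome-like cells had 1 higher and 84 lower, where 32 and 10.8% of all genes were, and medians of -0.63 and -0.36. There cox5b2 (-2.37), cox7a1 (-1.65), cox8b and atp5if1b (-1.39) were lower on both scales, with only 1 and 3 UMIs of cox7a1 in the flt1mut libraries and 0 and 11 in the WT libraries. Fin fold mesenchyme-like cells had 0 higher and 67 lower, where 20.1 and 7.3% of all genes were, with cox7a1 (-2.33), ndufa4, cox8b and cox6b1 lower on both scales. The fold of cox7a1 rests on 0 and 0 UMIs in the flt1mut libraries and 0 and 3 in the WT libraries.

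Macrophage-like cells had 5 members higher and 39 lower with TMM, where 15.3 and 12.9% of all genes were. The gene cox8b was called higher there at 2.40 with TMM and 2.74 with totals, cox7a2a (-0.76) and ndufa7 (-1.002) were lower on both scales, and the calls of cox4i2 and ndufaf2 as lower were lost with totals. Macrophage-like cells had 0 UMIs of cox4i2 in every library. Smooth muscle-like cells had 1 higher and 77 lower, where 30.3 and 11.7% of all genes were. The 1 was cox4i2, at 1.53 with TMM and 2.04 with totals, and cox5b2 (-2.21), atp5if1b (-1.99) and sdhc (-1.03) were lower on both scales. Endothelial-like cells had 1 higher and 82 lower, where 16.6 and 8.02% of all genes were. Of those named, ndufa4 (-3.24 with TMM and -2.59 with totals) and sdhaf2 (-1.94 and -1.28) were lower on both scales, and cox8b and ndufaf2 were lower with TMM alone. The fold of ndufa4 rests on 0 and 2 UMIs in the flt1mut libraries and 1 and 0 in the WT libraries.

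Pairs and groups of members that encode the same subunit can be compared as shares of their joint UMIs, which do not depend on the scaling. The counting gave each copy its own 3′ tags, and reads that fit several copies may be lost or split between near-identical ones. Subunit 4 of complex IV, which takes part in the control of the complex by ATP, has 3 genes here. The gene cox4i2 took 15.6 and 22.4% of their UMIs in melanophore-like cells of the flt1mut libraries and 21.2 and 21.8% in those of the WT libraries. In xanthophore-like cells it took 10.4 and 13.1% against 21.5 and 8.11%, in iridophore-like cells a mean of 6.58% and in endothelial-like cells a mean of 5.79%. Its level in melanophore-like cells was 204 and 263 UPM in the flt1mut libraries and 212 and 247 in the WT libraries, on 25, 57, 11 and 103 UMIs, and its log2 fold was 5.98 ± 0.27 with TMM and 6.47 with totals. In xanthophore-like cells the fold was 4.49 ± 0.40 with TMM and 4.84 with totals. Outside the pigment cell classes the share was high in photoreceptor-like cells, which were not tested. There cox4i2 took 50 and 15.6% in the flt1mut libraries, on 1 and 10 cells, and 11.4 and 10.1% in the WT libraries, on 47 and 43 cells, above iridophore-like cells in every library. In mammals this form is known from lung and from cells short of oxygen.

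The other members named by the rule in these 2 classes were lower with TMM. In melanophore-like cells these were atp5if1b, atp5if1a, ndufa4l and atp5mc3a, between -0.47 and -0.38, and with totals they lay between -0.01 and 0.13. In xanthophore-like cells they were atp5mc3a (-0.85), cox7a2l (-0.79), atp5f1c (-0.66) and uqcrc2a (-0.57). Fast muscle markers stood at 79138 and 46987 UPM in melanophore-like cells of the flt1mut libraries and 28916 and 27223 in those of the WT libraries, higher in both flt1mut libraries. In xanthophore-like cells they stood at 59946 and 69790 UPM in the flt1mut libraries and 28641 and 74091 in the WT libraries. In neuron-like cells, described next, they stood at 30555 and 38115 UPM in the flt1mut libraries and 13935 and 50892 in the WT libraries. The part of these transcripts in the values of any of these classes was not tested.

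The ndufa4 family, first named for complex I and now counted with complex IV, showed the same kind of shift in neuron-like cells. There ndufa4 took 20.5 and 19.0% of the family's UMIs in the flt1mut libraries and 17.9 and 13.3% in the WT libraries. In fast muscle-like cells it took 2.83% and in superficial epidermis-like cells under 1%, with ndufa4l taking nearly all the others. In neuron-like cells ndufa4 had 163 and 146 UPM in the flt1mut libraries and 133 and 109 in the WT libraries. The groups did not overlap, but the genotype difference was not called (log2 fold 0.31, adjusted p = 0.545, edgeR). The log2 fold of ndufa4 against the other classes was 2.88 ± 0.18 with TMM and 3.48 with totals. Its UPM in pronephros-like cells, on 5 to 20 UMIs a library, overlapped with that in neuron-like cells. The lower members in neuron-like cells were sdhaf2 (-0.82), sdhaf4 (-0.72), ndufv3 (-0.68) and ndufaf3 (-0.63) with TMM, and all 4 lay between -0.24 and -0.05 with totals, where none was called. The 2 sdhaf genes encode assembly factors of complex II, and sdhaf2 is the one that helps to attach flavin to its largest subunit. The gene cox7a2a was called higher at 0.32.

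Other pairs split by class in a similar way. The gene cox6b1 took 33.6 and 29.3% of the UMIs of cox6b1 and cox6b2 in pronephros-like cells of the flt1mut libraries and 34.2 and 30.5% in those of the WT libraries, against a mean of 13.6% in secretory or lateral line-like and 2.14% in erythroid-like cells. For subunit 6A, cox6a2 took a mean of 5.89% in pronephros-like and 1.68% in erythroid-like cells. In neutrophil-like cells, with only 12 to 26 cells a library, it took 23.9 and 14.9% in the flt1mut libraries and 13.5 and 10.1% in the WT libraries. The gene cox8b, whose counterpart in rodents is a muscle form of subunit 8, took 7.67% of its pair in pronephros-like, 7.21% in macrophage-like and 1.90% in fast muscle-like cells.

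For subunit 5A, cox5aa took 79.2 and 78.1% of the pair in fast muscle-like cells of the flt1mut libraries and 78.8 and 78.4% in those of the WT libraries. In erythroid-like cells it took a mean of 77.9%, in muscle progenitor-like cells 61.2% and in superficial epidermis-like cells 54.5%. Among classes not tested, photoreceptor-like cells had 90.9 and 70.0% in the flt1mut libraries, on 1 and 10 cells, and 77.7 and 77.2% in the WT libraries. Neutrophil-like cells, also not tested, had a mean of 73.4%. The inhibitor pair ran from 89.9% atp5if1b in erythroid-like cells, 82.6% in superficial and 80.9% in basal epidermis-like cells to 24.9% in smooth muscle-like cells. Its other member, atp5if1a, is known in zebrafish to be needed for haem synthesis in red blood cells. Subunit e of ATP synthase was made up of atp5mea by 4.23% in fast muscle-like and 24.0% in endothelial-like cells. Subunit c came from atp5mc3b by 78.6% in erythroid-like and 51.8% in pronephros-like cells, where atp5mc1 took 13.7 and 34.6%. The mitochondrial acyl carrier protein gene ndufab1a took 64.8% of its pair in erythroid-like and 30.7% in fast muscle-like cells, and uqcrc2a, for a core subunit of complex III, took 70.1 and 56.9%. The gene cox7a2l, whose product in mammals joins complexes III and IV, took 37.5% of the subunit 7A group in macrophage-like cells.

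**Figure D3:**
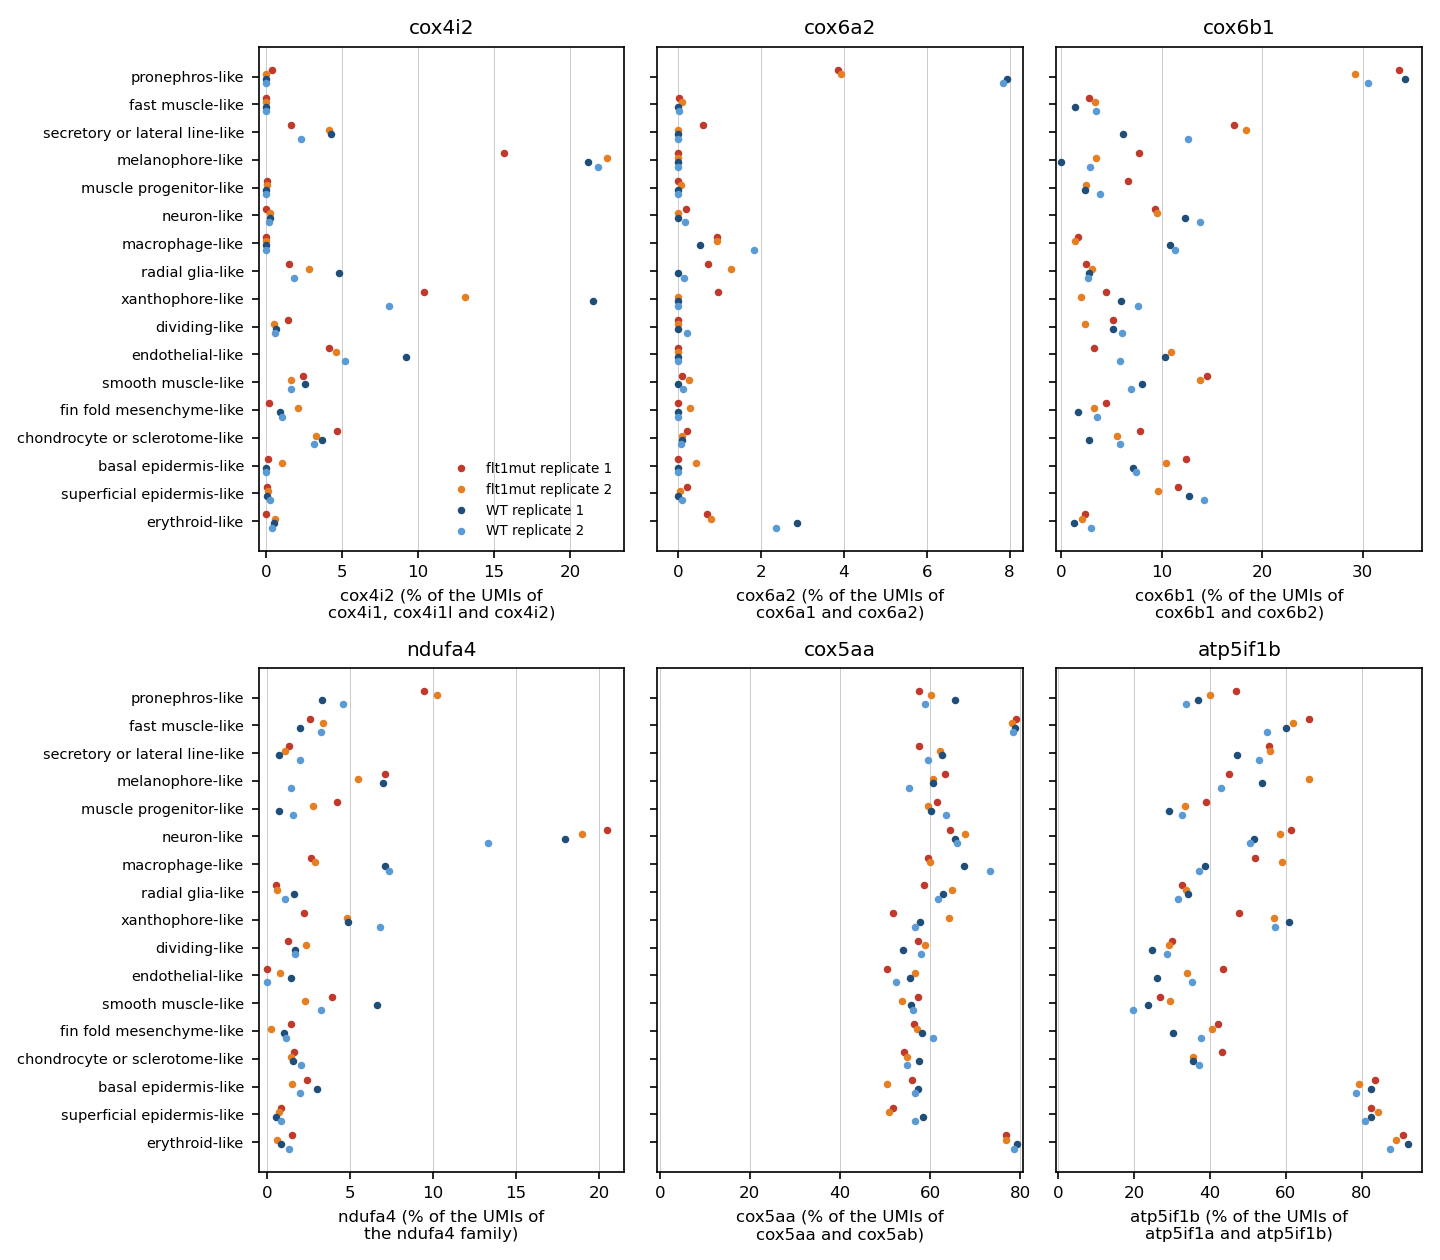
Share of one copy in the UMIs of its subunit's genes (x axis, %), for 6 copies and 17 classes (y axis); each point is a library. The gene cox4i2 is high in melanophore-like and xanthophore-like cells, cox6b1 and cox6a2 in pronephros-like cells, ndufa4 in neuron-like cells, cox5aa in fast muscle-like and erythroid-like cells, and atp5if1b in erythroid-like and both epidermis-like classes.

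Cells with under 20% mitochondrial UMIs were also clustered and named again. A slow muscle-like class of 169 cells then appeared, and 97.0% of its cells lay over the 5% limit. The 101 genes took 12.6 and 13.5% of its UMIs in the flt1mut libraries and 12.6 and 11.8% in the WT libraries, the highest of any class, and mitochondrially encoded transcripts took 11.7%. An ionocyte-like class of 115 cells, the salt-pumping cells of the skin, had a share of 6.90%, with 49.6% of its cells over the 5% limit. A hepatocyte-like class of 25 cells had 3.80%, with 80.0% over the limit, and 62.1% of 3032 neuron-like cells were over it. In slow muscle-like cells ndufa4 took 26.8 and 28.3% of its family's UMIs in the flt1mut libraries and 27.1 and 21.6% in the WT libraries, against a mean of 2.98% in fast muscle-like cells of the same clustering. In hepatocyte-like cells cox6b1 took a mean of 58.7% of its pair, on 20 to 92 UMIs a library. The shares of cox4i2 in melanophore-like cells (20.3%) and of cox6b1 in pronephros-like cells (29.3%) were close to those under the 5% limit.

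**Figure D4:**
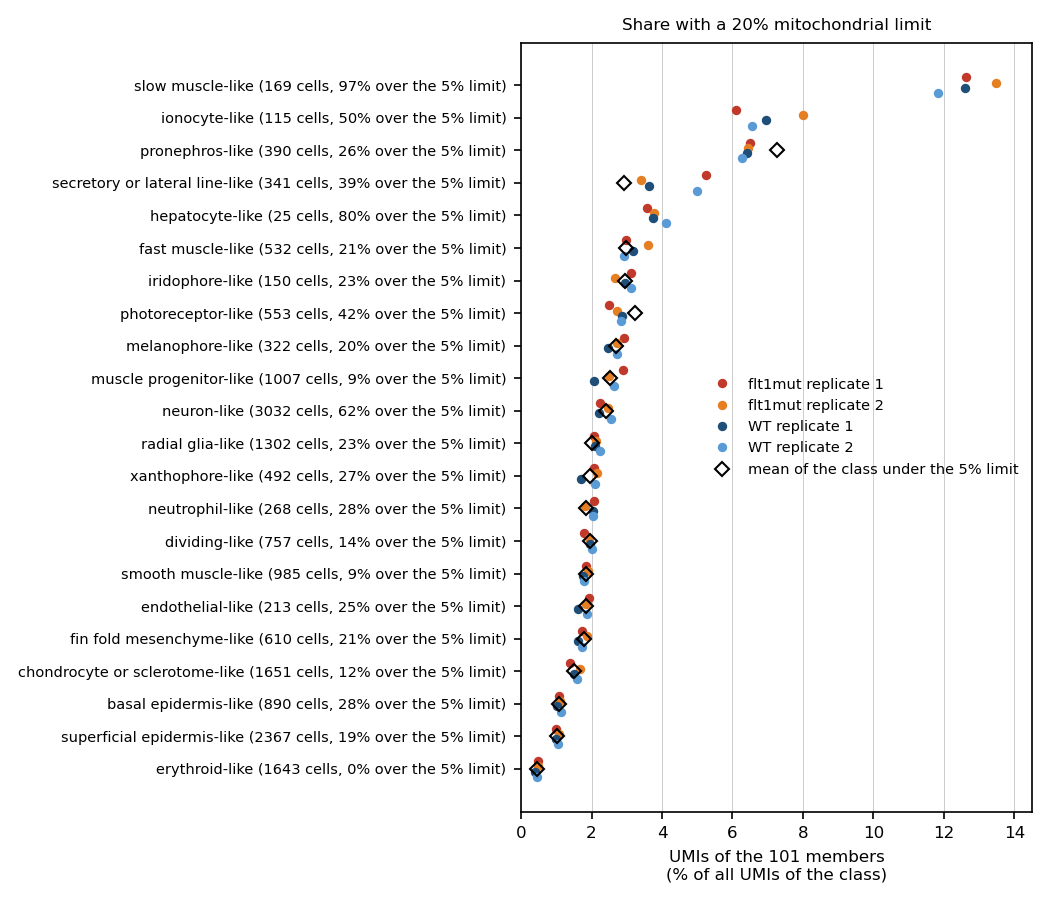
UMIs of the 101 genes as a percentage of all UMIs of a class (x axis) with a 20% limit on mitochondrial UMIs, for each class named again (y axis, with its cells and the percentage of them over 5%); points are libraries and diamonds the mean under the 5% limit. Slow muscle-like cells lie between 11.8 and 13.5%, and ionocyte-like and hepatocyte-like classes have no diamond because they were not named under the 5% limit.

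Whether loss of flt1 went with a change of these genes was first tested on the summed UMIs of the whole trunk. Of 98 members tested (ndufs1, ndufa4l2b and ndufa9b did not pass the filter on low counts), 0 were called between flt1mut and WT, and 6 had an unadjusted p under 0.05. The share of all genes at that unadjusted p is not given here, so the 6 are no result about the members. Of all 18036 genes 0.466% were called. With DESeq2 2 members were called, atp5mea and sdhb, and the share of all genes called with DESeq2 is not given here. The median log2 fold of the members was 0.06, and of all genes -0.01. In bulk sums fewer cells of a type and less RNA per cell cannot be told apart. Fast muscle-like cells took 21.3 and 17.7% of the UMIs in the flt1mut libraries and 13.3 and 29.6% in the WT libraries, and the 101 genes took 1.70 and 1.85% against 1.55 and 1.92%, so the genotypes overlapped in both.

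The smallest p-values in the trunk were those of atp5mea, sdhb, ndufaf2 and sdhaf2. The gene atp5mea had 33.4 and 38.6 TMM-scaled counts per 1000000 (CPM) in the flt1mut libraries and 53.4 and 52.3 in the WT libraries (log2 fold -0.55, adjusted p = 0.141). The gene sdhb, for the iron-sulfur subunit of complex II, had 142 and 141 CPM in the flt1mut libraries and 73.5 and 97.0 in the WT libraries (log2 fold 0.73, adjusted p = 0.144). For ndufaf2 the log2 fold was -0.45 and for sdhaf2 0.45, both with an adjusted p of 0.152. The groups did not overlap for any of the 4, but these were picked by smallest p, so this is no further support. Without WT replicate 2 only 1 WT library is left, and the share of all genes called is not given, so calls in that fit are no result about the members.

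Within classes 12 tests of a member in a class were called, in 4 of the 17 classes. The superficial epidermis-like class had 5 of 90 members called, where 6.1% of 10407 genes were called. The gene uqcrc1, for a core subunit of complex III, had 112 and 120 CPM in the flt1mut libraries and 62.0 and 65.1 in the WT libraries (log2 fold 0.87 ± 0.10, adjusted p = 0.0103). The gene ndufaf2 had 75.7 and 88.9 CPM against 155 and 145 (-0.87 ± 0.11, adjusted p = 0.0129). The groups did not overlap for either gene, but both were picked by their adjusted p on the same libraries, so this is no further support. The genes sdhb (0.62), ndufs7 (0.60), which carries an iron-sulfur cluster of complex I, and ndufv1 (0.59), which binds NADH, rose as well, with adjusted p-values of 0.0173, 0.0195 and 0.0302. In the same cells 4 of 13 mitochondrially encoded genes were called higher and 2 of 16 genes of the tricarboxylic acid cycle lower. All 5 calls were lost without flt1mut replicate 1 (adjusted p between 0.0528 and 0.0959), and those of sdhb, ndufs7 and ndufv1 also without flt1mut replicate 2 (0.0565, 0.0719 and 0.107).

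Fast muscle-like cells had 3 of 93 members called, where 1.62% of all genes were called. The gene sdhb had 233 and 258 CPM in the flt1mut libraries and 134 and 120 in the WT libraries (log2 fold 0.95 ± 0.12, adjusted p = 0.0104). The gene ndufv1 had 130 and 147 CPM against 76.0 and 82.5 (0.80 ± 0.13, adjusted p = 0.0307). In both the lower flt1mut library was above the higher WT library, but these genes were picked by their adjusted p on the same libraries. The gap is therefore no further support. The call of cox4i1l (-3.80, adjusted p = 0.0465) rested on 5 and 0 UMIs in the flt1mut libraries and 11 and 93 in the WT libraries, and without WT replicate 2 its adjusted p was 0.105. The fourth smallest p was that of cox5b2. In the tricarboxylic acid cycle list mdh1aa, a cytosolic malate dehydrogenase, rose in these cells (1.20, adjusted p = 0.0357). The calls were lost for sdhb without flt1mut replicate 2 (0.0525), for ndufv1 without flt1mut replicate 1 (0.0839) or 2 (0.166), and for both with the 20% limit (0.0504 and 0.0607).

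Erythroid-like cells had 3 of 90 members called, where 5.24% of all genes were called. The gene ndufa10, for an accessory subunit of complex I, had 28.5 and 29.6 CPM in the flt1mut libraries and 15.3 and 18.1 in the WT libraries (0.80, adjusted p = 0.0268). The gene ndufc2, for another, had 41.7 and 42.2 against 19.3 and 27.0 (0.85, adjusted p = 0.0308). The gene atp5mea fell to 5.95 and 5.71 CPM in the flt1mut libraries, against 10.9 and 12.04 in the WT libraries (-0.97, adjusted p = 0.0291). The fourth, ndufaf2, had a log2 fold of 1.37 and an adjusted p of 0.0518, opposite in sign to superficial epidermis-like cells. The calls of ndufa10 and atp5mea were lost without flt1mut replicate 1 (adjusted p = 0.0772 and 0.119) and without flt1mut replicate 2 (0.0905 and 0.1005), and all 3 were lost with DESeq2. In smooth muscle-like cells 1 of 91 members was called, where 0.638% of all genes were. This was cox6b1, with 113 and 108 CPM in the flt1mut libraries and 58.5 and 52.6 in the WT libraries (0.99 ± 0.13, adjusted p = 0.0366). The next there were sdhb, uqcr10 and atp5if1b.

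The other 13 classes had 0 members called by edgeR, with 1 to 10 members at an unadjusted p under 0.05 in each. The share of all genes at that unadjusted p is not given here. Of all genes, 1.16% were called in melanophore-like, 0.785% in basal epidermis-like, 0.579% in fin fold mesenchyme-like, 0.238% in macrophage-like, 0.163% in chondrocyte or sclerotome-like and 0.219% in muscle progenitor-like cells. The share was 0.0857% in endothelial-like, 0.0331% in dividing-like and 0.0136% in radial glia-like cells, and 0% in neuron-like, pronephros-like, secretory or lateral line-like and xanthophore-like cells. Macrophage-like cells came nearest, where cox6b1 had 3 and 2 UMIs in the flt1mut libraries and 31 and 33 in the WT libraries (log2 fold -2.98 ± 0.46, adjusted p = 0.0793), followed by atp5if1a, sdhaf4 and ndufa4. The 4 members of smallest p were sdhb, atp5mc3a, cox6b1 and atp5mc3b in basal epidermis-like cells, ndufaf2, sdhb, atp5mea and atp5mc3a in chondrocyte or sclerotome-like cells, and atp5mc3a, sdha, ndufb3 and uqcr10 in dividing-like cells. In neural classes they were sdhb, atp5mc3a, ndufab1a and ndufv1 in neuron-like cells and atp5mc3a, ndufb3, atp5mea and ndufb11 in radial glia-like cells. In endothelial-like cells they were sdhb, atp5l, atp5f1c and uqcrq, and the smallest adjusted p of a member was 0.657.

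In pronephros-like cells the 4 were ndufv1, cox4i1l, ndufa4 and atp5f1b, in muscle progenitor-like cells ndufv1, sdhb, ndufa4 and atp5md, and in secretory or lateral line-like cells ndufv3, sdhb, atp5mea and ndufv1. In melanophore-like cells they were sdhb, atp5md, ndufa12 and sdhc, and in fin fold mesenchyme-like cells atp5mea, ndufa10, ndufaf3 and ndufs7. In xanthophore-like cells they were cox7a2l, atp5md, atp5mc3a and atp5pd, with a log2 fold of -1.14 for cox7a2l. None of these was called.

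Of the 75 members tested in all 17 classes, sdhb and atp5if1b had a log2 fold above 0 in every class, and atp5mc3a, uqcr10 and atp5mea below 0 in every class. Over all 859 genes tested in all classes, 1.4% were above 0 and 2.68% below 0 in every class. With 2 and 3 of 75 members, no excess over this background can be read from these counts. The 17 classes come from the same 4 libraries and are not independent. For sdhb the log2 folds ran between 0.13 in xanthophore-like and 1.27 in melanophore-like cells, and for atp5mea between -0.97 in erythroid-like and -0.20 in xanthophore-like cells.

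**Figure D5:**
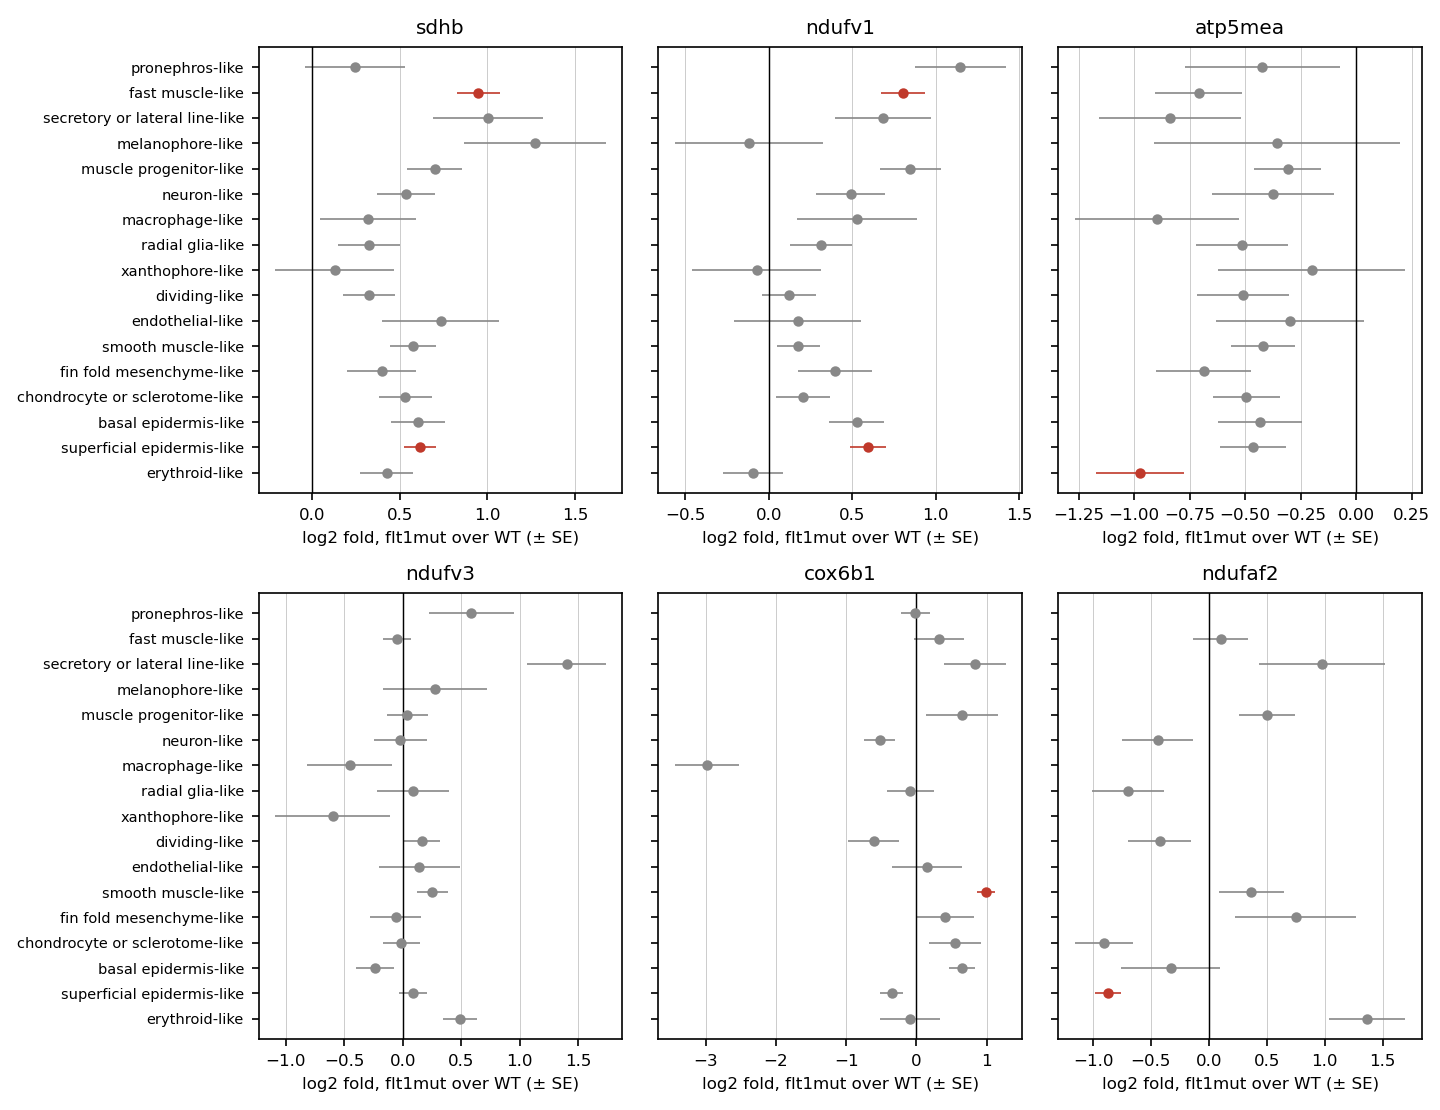
log2 fold of flt1mut over WT (x axis, bars are ± SE) for 6 members in each class where the member was tested (y axis); red marks an adjusted p under 0.05 within the class. All 17 folds of sdhb lie above 0 and all 17 of atp5mea below 0, while those of ndufaf2 lie on both sides, at 1.37 in erythroid-like and -0.87 in superficial epidermis-like cells.

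Whether the genotype effect differed between classes was tested by the interaction of class and genotype over all 17 classes. Of 94 members 1 was called, ndufv3, for a small subunit of the NADH-binding part of complex I (adjusted p = 0.0231). Of all 13797 genes 0.877% were called. In secretory or lateral line-like cells ndufv3 had 196 and 237 CPM in the flt1mut libraries and 60.8 and 100 in the WT libraries (log2 fold 1.40 ± 0.34, not called within that class), and in fast muscle-like cells the log2 fold was -0.05 ± 0.12. The next members were ndufaf2 (adjusted p = 0.0749), cox6b1 (0.108), ndufv1 (0.198), ndufa4 (0.1997) and ndufb3 (0.415). The call of ndufv3 was lost with library totals (adjusted p = 0.0546), with the 20% limit (0.868) and without any 1 library (between 0.237 and 1), and ndufaf2 was called with the 20% limit (0.0130).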

How the data were processed

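Trunk libraries of 2 flt1mut and 2 WT samples were analysed. Per the labels and the file headers, the authors mapped reads to GRCz11 with Cell Ranger 6.1.1 and deposited counts of UMIs per gene and barcode, limited to called cells. The version of the chemistry is 2 in the labels and 3 in the methods, which was not resolved here. No normalization had been applied.

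Cells with over 200 and under 4000 genes and under 5% mitochondrial UMIs were retained, as in the study's methods. Clustering used Seurat 5.3.0 in R 4.3.3 (log-normalised counts in place of SCTransform, 2000 variable genes, reciprocal principal component integration with 30 dimensions, 50 components, resolution 0.3). A cluster took the class with most markers among its leading genes, or stayed unnamed. Scrublet in scanpy 1.11.5 called 0 to 3 doublets a library, so the 8% of cells of highest score were left out as an alternative.

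UMI sums per library, or per class and library, were tested with edgeR 4.0.16 (quasi-likelihood F test, filterByExpr, TMM, two-sided, Benjamini-Hochberg over all genes tested). Genotype was fitted per class over 4 libraries, and class contrasts and the interaction in a joint fit with library as a block. The scripts were tested on simulated data. Alternatives were DESeq2 1.42.0, library totals, no count filter, each library left out, a replicate block, other cell limits, members among the variable genes, and the sum of other classes as reference. UPM are relative to all UMIs of a class and library, and CPM are TMM-scaled. Total UMIs of retained cells were 45024210 and 39757583 in the flt1mut libraries and 35781471 and 61822943 in the WT libraries. Low counts bear counting error only as far as UMIs are molecules.

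The members and lists were chosen with earlier results of these data known. The text names, per genotype test, each member called and otherwise the 4 of smallest p, per class contrast described up to 4 called members of largest and of smallest fold whose libraries do not overlap with the mean of the other classes, the 6 of smallest adjusted p in the interaction, and copies of the same subunit. Coordinates and sequences were not used here.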

Additional observations from a re-analysis of the deposited data

Results flagged for a closer look

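The interaction of class and genotype differed for ndufv3 by a test of the difference itself (adjusted p = 0.0231, edgeR over 17 classes and 4 libraries). As given above, this call was lost with library totals, with the higher limit on mitochondrial UMIs and without any single library. It was 1 call among 94 members, where 121 of all 13797 genes were called, so no excess of members can be read from it. The log2 fold of ndufv3, flt1mut over WT, was 1.40 in secretory or lateral line-like, 0.59 in pronephros-like and 0.49 in erythroid-like cells, and -0.60 in xanthophore-like cells, and none was called within its class. No cause was tested.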

How the results depend on the processing

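The count of 0 members called between flt1mut and WT in the whole trunk was 2 with DESeq2 and 0 to 4 with 1 library left out, where a lone library is assumed to vary like those of the other genotype. The 12 calls within classes were 29 with no count filter and 5 to 44 with 1 library left out (5 without flt1mut replicate 1, 8 without flt1mut replicate 2, 24 without WT replicate 1 and 44 without WT replicate 2). They numbered 10 to 15 under the other alternatives, among them 10 with DESeq2 and 15 without the cells of highest doublet score. The share of all genes called is not given for the genotype tests or the interaction under these alternatives. These counts, and those of the interaction that follow, therefore cannot show whether the members differ from other genes. The count of 1 for the interaction was 6 with no count filter, 0 with library totals, 2 with members among the variable genes, 2 with over 500 genes per cell and 0 to 1 with 1 library left out.

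Library totals in place of TMM moved the calls over all class contrasts from 299 to 554 higher and from 715 to 405 lower. In fast muscle-like cells 4 members were called lower with totals and 2 against the sum of the other classes, where 0 were with TMM. In erythroid-like cells the 62 called higher numbered 2 with totals, and the 10 called lower numbered 87 with totals, 16 with the 20% limit, 6 without the cells of highest doublet score and 5 to 9 with 1 library left out. In superficial epidermis-like cells the 12 called higher numbered 2 with totals, 7 with the 20% limit, 7 without mitochondrially encoded UMIs and 6 to 13 with 1 library left out. The 37 called lower there numbered 23 with no count filter, 86 with totals, 70 with the 20% limit, 64 against the sum of the other classes and 58 without mitochondrially encoded UMIs. In fast muscle-like, erythroid-like and superficial epidermis-like cells the share of all genes called also moved with the scaling. That share is not given for all class contrasts together or for the other alternatives. The counts listed here therefore cannot show whether the members differ from other genes. The cause of these shifts was not tested.

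With totals the log2 fold changed sign for cox7a1 (-0.18) and cox8b (-0.24) in erythroid-like cells, ndufa4l (0.11) and atp5mc3a (0.13) in melanophore-like cells and atp5mc3a (-0.54) in superficial epidermis-like cells, and against the sum of the other classes for cox7a2a (-0.25) in neuron-like cells and atp5mc3a (-0.0053) in superficial epidermis-like cells. Single values were set against the alternatives for the named members of the trunk test, the calls within classes and the interaction. Class contrasts were included for pronephros-like, fast muscle-like, erythroid-like, superficial epidermis-like, melanophore-like, xanthophore-like and neuron-like cells only. Of these 809 values, 717 kept their direction and side of the threshold, 75 lost the call, 10 gained it and 7 changed sign. For the interaction only the side of the threshold was compared.

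The labels do not say whether same-numbered libraries were handled together. In whole-trunk sums same-numbered libraries did not deviate together (correlation of deviations -0.177 over 18036 genes and -0.0865 over the 9018 above the median level). These sums also carry class composition, so the correlation cannot decide whether same-numbered libraries share a batch. In both genotypes replicate 1 had the higher median UMIs per cell, 5037.5 against 779 in flt1mut and 8033 against 3760 in WT. With a replicate block the trunk had 0 calls and the classes 15, and in fast muscle-like cells the adjusted p was 0.0603 for sdhb, 0.0783 for ndufv1 and 0.131 for cox4i1l. With the crossed pairing, chosen after seeing the data, the counts were 0 and 10. The removal of fast muscle-like cells and of mitochondrially encoded UMIs was likewise chosen then. The share of all genes called is not given with either block. The counts with these blocks therefore cannot show whether the members differ from other genes.

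Precision is limited by 2 libraries per genotype, by a median of 779 UMIs per cell in flt1mut replicate 2, and by classes of few cells.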
